A study of Mus musculus with 12 samples.

Results

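The 10 genes described here are markers of melanocytes and of the intermediate cells of the stria vascularis, chosen by name from the 37432 genes of the deposited expression table: the melanosome genes Dct, Tyr, Slc45a2, Mlana, Pmel and Tyrp1, the transcription factor Mitf, the receptors Met and Kit, and the potassium channel Kcnj10. Bulk RNA-seq was made from apical, middle and basal pieces of the cochlea at P14 in wild-type mice and in mice homozygous for the 35delG mutation of Gjb2 (Gjb2 35delG/35delG), which encodes the gap junction protein connexin 26. There were 12 libraries in 6 groups, 2 per genotype and turn. The homozygous mice were males made wholly from male embryonic stem cells by tetraploid complementation. They had a background close to C57BL/6J, were born by cesarean delivery and were raised by ICR foster females. The wild-type males were purchased, and the study's text names no strain for them. Genotype, origin, rearing and any difference of strain therefore cannot be told apart. The 2 libraries of a group are described in the study's supplement as biological repeats. How many mice, cochleae or stem cell lines stand behind each is not given in the sources used here, and p-values measure the spread between libraries.

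Intermediate cells are melanocyte-like cells derived from the neural crest that lie inside the stria vascularis, between its marginal and basal cells. They carry the inward rectifier potassium channel encoded by Kcnj10 (Kir4.1), which is needed for the endocochlear potential, and they make the enzymes and structural proteins of the pigment organelle, the melanosome. Mitf is the transcription factor that directs melanocyte development and many melanosome genes, while the receptors Kit and Met bind stem cell factor and hepatocyte growth factor.

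Mitf and related factors bind the M-box, a motif with the core TCATGTG, and the promoters of the tyrosinase family are shown because Dct and Tyr gave the clearest pattern below while Tyrp1 did not follow it. The RefSeq table (GRCm38.p6) held promoters for 7 of the 10 genes, and the 250 bases before the start of Tyr (chr7:87493513-87493762, minus strand), Dct (chr14:118052247-118052496, minus strand) and Tyrp1 (chr4:80833963-80834212, plus strand) read 5′ to 3′ as follows, with TCATGTG, or its reverse complement CACATGA, in capitals.

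Tyr: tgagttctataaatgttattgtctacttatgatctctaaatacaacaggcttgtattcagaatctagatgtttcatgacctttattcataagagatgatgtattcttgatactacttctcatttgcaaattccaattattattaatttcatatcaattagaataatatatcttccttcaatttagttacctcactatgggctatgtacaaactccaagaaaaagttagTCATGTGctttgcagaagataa

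Dct: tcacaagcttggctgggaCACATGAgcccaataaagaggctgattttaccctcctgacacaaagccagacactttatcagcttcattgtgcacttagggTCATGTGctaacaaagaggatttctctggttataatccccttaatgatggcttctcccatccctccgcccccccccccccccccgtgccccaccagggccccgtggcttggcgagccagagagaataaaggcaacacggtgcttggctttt

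Tyrp1: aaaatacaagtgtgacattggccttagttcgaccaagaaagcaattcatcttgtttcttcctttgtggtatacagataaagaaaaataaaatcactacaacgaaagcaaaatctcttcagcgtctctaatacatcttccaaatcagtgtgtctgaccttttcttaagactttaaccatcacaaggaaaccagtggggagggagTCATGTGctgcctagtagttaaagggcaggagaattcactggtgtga

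TCATGTG stood in the windows of these 3 genes and of none of the other 4 with a window (Kcnj10, Kit, Met, Mitf), against 3.25% of all 32851 windows on either strand. The longer form GTCATGTGCT, which contains the shorter one, was copied from the Tyr window, so its presence there was fixed in advance. It was also present in the windows of Dct and Tyrp1, and in 0.155% of all windows. The TCATGTG inside it began 22 bases before the start of Tyr, 151 before that of Dct and 47 before that of Tyrp1, and Dct had the shorter form a second time, on the opposite strand, 232 bases before the start. A match of letters is a description of the window and not evidence of binding.

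Before the members are described, 3 features of the libraries bear on them. Thrb, named after its values were seen, had 7.35 to 11.9 scaled FPKM in the 6 wild-type libraries and at most 0.0363 in the 6 homozygous ones, so no library stood on the wrong side of its genotype label for this gene. Scaled FPKM are the deposited values, fragments per kilobase of gene normalised to library size, divided by 1 factor per library (0.917 to 1.06). The 35delG mutation removes a base and its transcript is still counted, so the level of Gjb2 itself, 58.6 to 451 scaled FPKM over the libraries, is no check of genotype. By qPCR relative to Gapdh the study reported less Gjb2 in homozygous cochleae at P14, without a division by turn. That measure and tissue differ from the FPKM of separate turns given next. Here the wild-type and homozygous pairs were 248 and 254 against 332 and 376 at the apex. They were 140 and 268 against 256 and 451 in the middle turn, and 434 and 256 against 126 and 58.6 at the base. The turns were less clear. Emilin2, also named after its values were seen, had 23.0 and 20.8 scaled FPKM in the wild-type middle and 31.7 and 5.85 in the homozygous basal libraries, but 106 and 89.9 in the wild-type basal and 386 and 326 in the homozygous middle ones. Homozygous basal replicate 2 also stood apart, with a summed level of 474 for 6 spiral ligament fibrocyte markers against 2551 in homozygous basal replicate 1 and 6802 or more in the other 10 libraries. The part of these features in the results below was not tested.

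Dct, which encodes dopachrome tautomerase, was the most abundant melanosome gene and was either high or near 0. It measured 1.17 and 1.66 scaled FPKM in the wild-type apical libraries, replicates 1 and 2 in that order here and below, and 194 and 586 in the homozygous ones. In the middle turn it measured 5.59 and 1.64 in wild-type libraries and 227 and 474 in homozygous ones. The groups did not overlap in either turn, and the ratio of the group means was 275 at the apex and 96.9 in the middle turn. In the basal turn each pair split, with 1.03 and 442 in the wild-type pair and 158 and 0.0646 in the homozygous one. Dct was thus over 100 scaled FPKM in 6 of 12 libraries, 5 of them homozygous and the other wild-type basal replicate 2, and under 10 in the other 6, which included homozygous basal replicate 2. Dct lies on the minus strand at chr14:118012790-118052185 (mm10) and shares part of its locus with the antisense gene 4930435M08Rik. In bulk tissue, fewer cells of a type and less RNA per cell cannot be told apart.

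Tyr (chr7:87424771-87493512), the rate-limiting enzyme of melanin synthesis, followed the same split. Its levels were 0.0345 and 0.0434 scaled FPKM in the wild-type apical, 0.0991 and 0.0486 in the wild-type middle, 7.30 and 17.3 in the homozygous apical and 5.71 and 15.6 in the homozygous middle libraries. The basal pairs were 0.0686 and 11.5 for wild-type, and 4.08 and 0.0173 for homozygous cochleae. Every one of the 6 libraries with Dct over 100 was above each of the other 6 for Tyr.

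Slc45a2, a melanosome membrane transporter, and Mlana, a melanosome protein, divided the libraries in the same way. Slc45a2 measured 0 and 0.0415 scaled FPKM in the wild-type apical, 0.365 and 0.106 in the wild-type middle, 11.6 and 25.6 in the homozygous apical and 9.33 and 22.9 in the homozygous middle libraries. Its basal pairs were 0.0462 and 24.8 for wild-type, and 5.26 and 0.0378 for homozygous cochleae. Mlana measured 0.119 and 0.246 in the wild-type apical, 0.499 and 0.343 in the wild-type middle, 7.03 and 14.4 in the homozygous apical and 4.50 and 15.6 in the homozygous middle libraries. For both genes the homozygous apical and middle libraries lay wholly above the wild-type ones. The basal values of Mlana were 0.501 and 30.2 for wild-type, and 3.08 and 0 for homozygous cochleae, so the highest Mlana level of all 12 belonged to wild-type basal replicate 2.

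Pmel, which forms the fibrils of the early melanosome, and Tyrp1, an enzyme of the later steps of melanin synthesis, were low throughout. Pmel ranged from 0.502 to 5.27 scaled FPKM, with the highest value again in wild-type basal replicate 2. The homozygous libraries of Pmel stood at 1.63 and 1.66 at the apex, and at 1.89 and 1.87 in the middle turn, above 0.978 and 1.57 and above 0.954 and 1.03 in the wild-type ones. Pmel overlaps Cdk2 and Dgka on the opposite strand and the strandedness of the counting is not given in the sources used here, so its low values may include reads of those genes. Tyrp1 never passed 1 FPKM and was not tested. Its highest value was 0.941 in wild-type basal replicate 1, a library with little Dct, and it was 0 in homozygous apical replicate 2, the library with the most Dct.

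**Figure D1:**
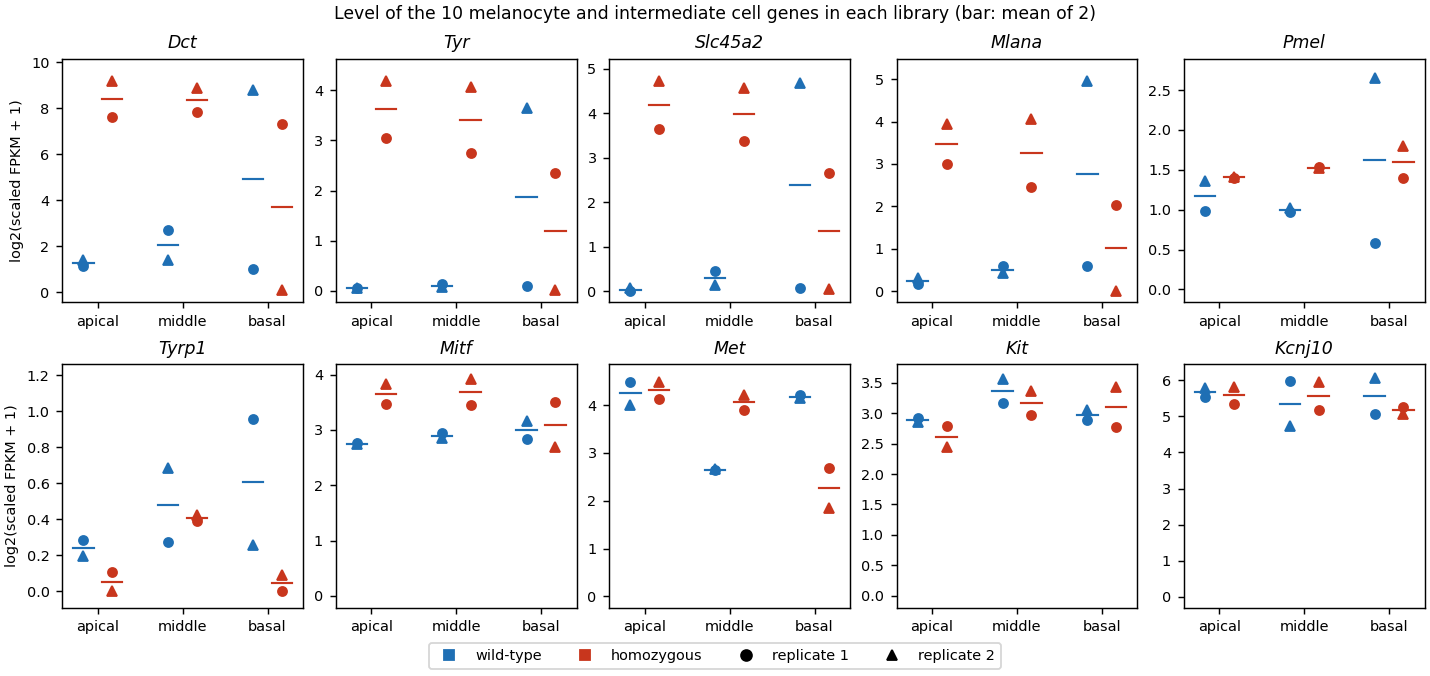
Levels of the 10 genes as log2(scaled FPKM + 1) by turn, with wild-type libraries in blue, homozygous in red, replicate 1 as circles, replicate 2 as triangles and each group mean as a bar. Dct, Tyr, Slc45a2 and Mlana were high in 6 libraries and near 0 in the other 6, and both basal pairs split.

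In limma, none of the 5 tested melanosome genes passed an adjusted p under 0.01 (Benjamini-Hochberg over 16215 genes) with a fold change over 2 in any turn. Of all genes, 0.179% passed at the apex, 0.179% in the middle turn and 4.29% at the base. The log2 fold change of Dct was 7.14 ± 2.59 (SE, n = 2 per group; limma adjusted p = 0.223) at the apex, 6.30 ± 2.59 (adjusted p = 0.172) in the middle turn and -1.21 ± 2.59 (adjusted p = 0.790) at the base. The fit estimated 1 spread per gene over all 6 groups, and the basal pairs of Dct differed within themselves by as much as the genotypes did in the other turns. At an unadjusted p under 0.05, 4 of the 5 genes passed at the apex, 3 in the middle turn and 0 at the base. The share of all genes at that level is not given, so such counts, here and below, are not set against a background. In a fit of the 4 apical libraries alone, limma called Dct (adjusted p = 0.00607) and Slc45a2 (adjusted p = 0.00910) higher in homozygous cochleae. The corresponding fits of the middle and of the basal turn called none of the melanosome genes. The share of all genes called in these fits of single turns is not given. An alternative added after the data were seen left out both basal replicate 2 libraries. Dct then had log2 fold changes of 7.14 at the apex and 6.30 in the middle turn. At the base the value was 6.30, with 1 library on each side. Averaged over turns, the values were 6.58 for Dct, 3.05 for Tyr, 3.48 for Slc45a2 and 2.48 for Mlana. Those libraries were left out for their levels of these very genes, so the estimates are no independent support.

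The other melanosome genes had smaller folds on the log2(value + 1) scale, which understates the change of low genes. For Tyr, limma gave 3.57 ± 1.10 (SE, adjusted p = 0.169) at the apex, 3.30 ± 1.10 (adjusted p = 0.109) in the middle turn and -0.68 ± 1.10 (adjusted p = 0.714) at the base. For Slc45a2 the 3 values were 4.16, 3.68 and -1.03, for Mlana 3.23, 2.75 and -1.76, and for Pmel 0.23, 0.53 and -0.02. The median over the 5 genes was 3.57 at the apex, 3.30 in the middle turn and -1.03 at the base, beside -0.03, 0.04 and -0.02 over all genes tested. The difference of the genotype effect between basal and apical turn was -8.34 ± 3.67 for Dct (limma adjusted p = 0.176), so unequal effects in the 2 turns were not called.

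**Figure D2:**
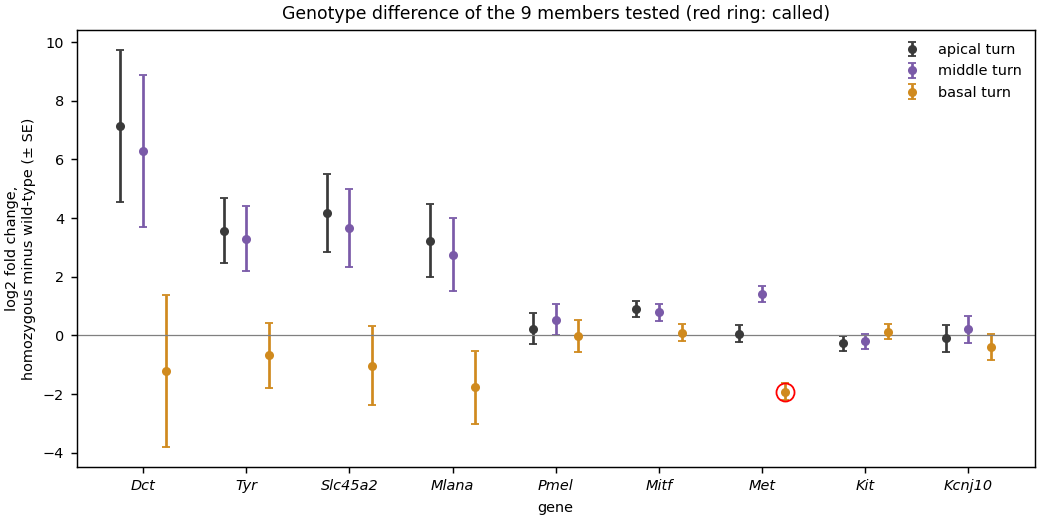
Genotype difference of the 9 tested genes, homozygous minus wild-type, as log2 fold change with its standard error from limma, in the apical (dark), middle (purple) and basal (orange) turn. Dct has the widest error bars (SE 2.59), and the red ring marks the only called value, Met in the basal turn.

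Mitf, the regulator of this set, was also above its wild-type level in the apical and middle turn, by a smaller factor. It measured 5.75 and 5.68 scaled FPKM in the wild-type apical, 6.66 and 6.22 in the wild-type middle, 10.1 and 13.2 in the homozygous apical and 9.91 and 14.2 in the homozygous middle libraries. The basal pairs were 6.11 and 7.96 for wild-type, and 10.3 and 5.44 for homozygous cochleae. The 5 homozygous libraries with high Dct were thus the 5 highest for Mitf, and wild-type basal replicate 2 was next, although its Dct was the third highest. The log2 fold change was 0.90 ± 0.28 (SE, n = 2 per group; limma adjusted p = 0.170) at the apex, 0.79 ± 0.28 (adjusted p = 0.127) in the middle turn and 0.10 ± 0.28 (adjusted p = 0.845) at the base. Averaged over turns it was 0.60 ± 0.16 (limma adjusted p = 0.0933), and 0 of the 9 genes tested were called in that average (4 at an unadjusted p under 0.05), against 0.376% of all genes. The values do not separate the isoforms of Mitf, which is also expressed outside melanocytes.

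Counted by overlap alone, 6 of the 9 tested genes had both homozygous libraries above both wild-type ones in the apical turn (Dct, Tyr, Slc45a2, Mlana, Pmel and Mitf), where 26.9% of all genes did. In the middle turn it was 7 of 9, the same genes and Met, against 31.3%. In the basal turn no member lay wholly above, against 26.2%, and Met alone lay wholly below, against 27.8%.

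Met (chr6:17463800-17573980), the receptor of hepatocyte growth factor, was the only member called, and it did not follow the melanosome genes. In the apical turn it measured 21.3 and 15.1 scaled FPKM in wild-type libraries and 16.5 and 21.4 in homozygous ones, which overlapped. In the middle turn it measured 5.25 and 5.31 in wild-type libraries and 14.0 and 17.6 in homozygous ones, and at the base 17.4 and 16.8 in wild-type libraries but 5.45 and 2.58 in homozygous ones. Met was thus low in the middle turn of wild-type and in the basal turn of homozygous cochleae, the same exchange of turns that Emilin2 showed above. Its part in the result was not tested.

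Met fell in the homozygous basal turn by 1.91 ± 0.28 on the log2 scale (SE, n = 2 per group; limma adjusted p = 0.00632), where 1.76% of all genes were called lower. In the middle turn the difference was 1.41 ± 0.28 (limma adjusted p = 0.0399), which is not past the threshold, and in the apical turn 0.06 ± 0.28 (adjusted p = 0.942). The genotype effect itself differed between the basal and the middle turn by -3.32 ± 0.40 (limma adjusted p = 0.00236), and Met alone of the 9 genes was called in this comparison, which called 8.91% of all genes. Between basal and apical turn the effect differed by -1.98 ± 0.40 (limma adjusted p = 0.0185), not called, with 0 of 9 members (5 at an unadjusted p under 0.05) against 0.796% of all genes.

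Along the homozygous cochlea, Met was lower in the basal than in the apical turn by -2.04 ± 0.28 (limma adjusted p = 0.00531) and than in the middle turn by -1.80 ± 0.28 (adjusted p = 0.00618), and these were the only member calls there, against 4.06% and 4.66% of all genes. They held in 5 and in 3 of the 12 fits that left out 1 library. Along the wild-type cochlea the lowest turn for Met was the middle one, at -1.59 ± 0.28 from the apical turn (limma adjusted p = 0.0547), and 0 of 9 members were called between any 2 wild-type turns (at an unadjusted p under 0.05, Met in 2 of the 3 comparisons), against at most 0.0863% of all genes. The basal call of Met lay close to its threshold. It was lost with no filter on low values, under library weights and with the 4 basal libraries alone (limma adjusted p = 0.149), and on leaving out any 1 library other than wild-type basal replicate 2 or homozygous basal replicate 1, with a log2 fold change of -2.34 to -1.48. Without both basal replicate 2 libraries it was -1.51 (limma adjusted p = 0.0134).

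Kit, the receptor that melanoblasts need to survive and migrate, showed no such pattern. It measured 6.56 and 6.21 scaled FPKM in the wild-type apical and 5.93 and 4.44 in the homozygous apical libraries, 8.01 and 10.8 in the wild-type middle and 6.83 and 9.27 in the homozygous middle libraries, and 6.39 and 7.33 in the wild-type basal and 5.87 and 9.74 in the homozygous basal libraries. The apical pairs did not overlap, with homozygous below, as for 32.1% of all genes, and the other pairs did. The log2 fold changes were -0.27, -0.20 and 0.13 from apex to base, each with an SE of 0.25, and none was called. Kit is also a marker of mast cells and blood progenitors, and homozygous middle replicate 1, with a Kit level of 6.83, held the highest summed level of 6 mast cell markers (16.2, against 0 to 3.73 elsewhere) and of 6 marrow progenitor markers (264, against 10.9 to 79.7).

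Kcnj10 (chr1:172341210-172374085), the channel by which intermediate cells are best known, stayed within a range of 25.4 to 65.8 scaled FPKM. It measured 45.7 and 54.6 in the wild-type apical and 39.5 and 55.3 in the homozygous apical libraries, 61.6 and 25.4 in the wild-type middle and 35.2 and 60.7 in the homozygous middle libraries, and 32.4 and 65.8 in the wild-type basal and 37.4 and 32.6 in the homozygous basal libraries. The genotypes overlapped in all 3 turns, and the log2 fold changes of -0.09, 0.22 and -0.39 were smaller than their SE of 0.46. Kcnj10 was therefore not at 0 where the melanosome genes were: homozygous basal replicate 2, with 0.0646 of Dct, still had 32.6 of Kcnj10.

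Kcnj10 is also expressed by glia and by supporting cells of the organ of Corti. The 6 oligodendrocyte and astrocyte markers summed to 1332 scaled FPKM in wild-type middle replicate 1 and 13.1 in replicate 2, where Kcnj10 was 61.6 and 25.4, and to 13.2 and 429 in the wild-type basal pair, where it was 32.4 and 65.8. In the homozygous basal pair, however, the sums of 457 and 713 stood beside Kcnj10 levels of 37.4 and 32.6. The part of these cells in the Kcnj10 level was not tested.

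Markers of strial marginal cells, the epithelial cells that secrete potassium into the endolymph, moved with the melanosome genes library by library. Their summed level was 238 to 575 scaled FPKM in the 6 libraries with Dct over 100 and 70.8 to 86.1 in the other 6, and 7 of the 10 markers lay wholly above in the former, as did 1.23% of all genes tested. The libraries were divided here by their Dct level, so these counts are a description. Kcne1, the accessory subunit of the strial potassium channel, measured 35.9 to 121 in the former and 0 to 0.431 in the latter, and Slc12a2, the sodium-potassium-chloride cotransporter, 121 to 240 and 40.3 to 65.2. None of the 10 markers was called by limma in the apical or middle turn (8 in each at an unadjusted p under 0.05), where all 10 estimates were positive with a median log2 fold change of 2.54 and 1.98. In the basal turn 1 was called lower (Heyl, -2.01), with a median of -0.46. The share of stria in a piece and the level per cell cannot be told apart from these sums.

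**Figure D3:**
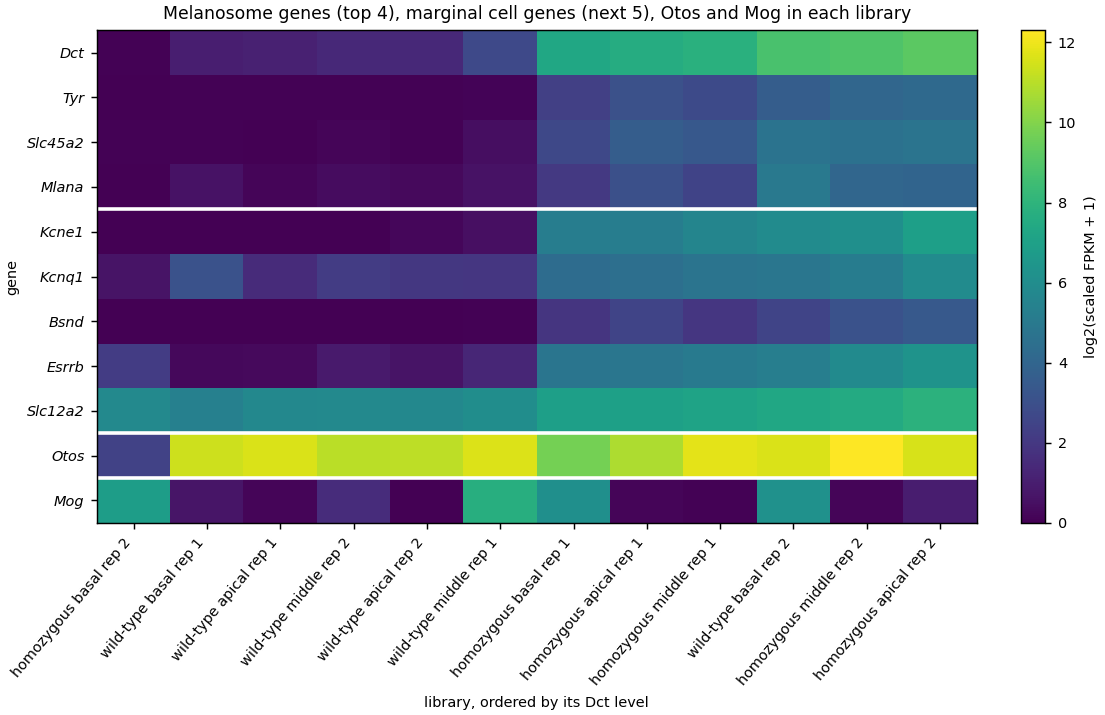
Heat map of log2(scaled FPKM + 1) with the 12 libraries ordered by their Dct level. Tyr, Slc45a2, Mlana and 5 marginal cell genes change together between the 6 left and the 6 right libraries, whereas Otos (fibrocytes) and Mog (oligodendrocytes) do not, and wild-type basal replicate 2 stands among the homozygous libraries. Kcnq1, Bsnd, Esrrb and Mog were chosen after their values were seen.

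The summed levels of the other strial and spiral ligament cell types did not divide the libraries in this way. The summed level of 4 strial basal cell markers was 370 to 551 in the 6 libraries with Dct over 100 and 251 to 640 in the others, and that of 6 fibrocyte markers 2551 to 11930 and 474 to 9284. Among the fibrocyte markers Car3, named after its values were seen, did lie wholly above, at 423 to 1321 against 25.3 to 333. Such a split was seen in 1.23% of all genes tested, and the other fibrocyte markers overlapped. The 4 further intermediate cell genes, led by Cd44 and Cadm1, overlapped as well, at 67.1 to 88.1 and 46.1 to 106, and none was called between genotypes in any turn (1 of 4 at the apex, 0 in the middle turn and 2 at the base at an unadjusted p under 0.05).

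Within the 6 libraries with Dct over 100, levels can be compared as a percentage of the Dct level of the same library, which the scaling does not affect. Tyr was 2.52 to 3.77% of Dct in the 5 homozygous libraries and 2.60% in wild-type basal replicate 2, and Slc45a2 was 3.34 to 5.97% and 5.60%. Both lay within the homozygous range in the wild-type library. Mlana did not, at 1.95 to 3.63% in the homozygous libraries and 6.83% in the wild-type one. Gpnmb, a melanosome glycoprotein that macrophages also express, was 7.45 to 11.1% against 28.0%. Trpm1, a cation channel gene of melanocytes named after its values were seen, was 0.141 to 0.247% against 4.46%, or 18.1 times the highest homozygous value. Marginal cell Kcne1 went the other way, at 14.5 to 22.8% against 13.7%. With 1 wild-type library there is no test of these differences.

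**Figure D4:**
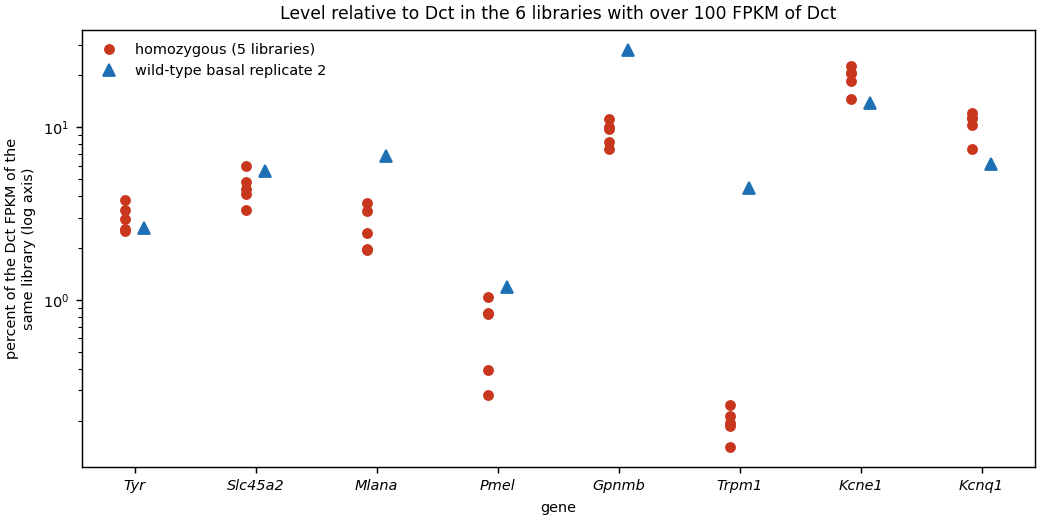
Levels of 8 genes as a percentage of the Dct level in the same library (log axis), for the 5 homozygous libraries (circles) and wild-type basal replicate 2 (triangles). Tyr and Slc45a2 lie within the homozygous range, whereas Mlana, Gpnmb and Trpm1 lie above it and Kcne1 and Kcnq1 below.

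The genes whose pattern was most like that of the melanosome genes, by Pearson correlation with the mean log2 level of the 6 genes over the 12 libraries, were Gpnmb (0.990), Hpse (0.985), Rufy4 (0.984), Krt7 (0.983) and Kcne1 (0.983). These coefficients describe 12 libraries that fall into 2 sets, and all the genes were measured in the same tissue pieces. Gpnmb measured 15.8 to 124 scaled FPKM in the 6 libraries with Dct over 100 and 0.493 to 1.86 in the others. Hpse, the gene of heparanase, measured 20.3 to 88.3 and 0.500 to 2.22, and Rufy4 5.06 to 16.8 and 0.293 to 1.04.

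Of the 24 other melanocyte pathway genes, which cover lineage factors, ligands and melanosome proteins, 19 were tested. None was called in the apical or middle turn (6 and 4 at an unadjusted p under 0.05) and 1 was called lower in the basal turn, Tbx2, a T-box factor of melanocytes and of other otic cells, by -2.30 ± 0.41 (SE, n = 2 per group; limma adjusted p = 0.00911), where 1.76% of all genes were called lower. The median log2 fold change of the 19 was 0.64 at the apex, 0.45 in the middle turn and -0.56 at the base. The most abundant were Cd63, a tetraspanin of melanosomes and of most other cells, at 135 to 290 scaled FPKM, and Sox10, a factor of melanocytes and of glia, at 41.3 to 112. Sox10 was no higher where the melanosome genes were, with 92.7 and 93.4 in the wild-type apical and 77.6 and 75.8 in the homozygous apical libraries. The ligands of the member receptors were named for their role after their values were seen. Hgf, the ligand of Met, had a log2 fold change of 1.23 ± 0.38 in the apical turn (limma adjusted p = 0.169), and Kitl, the ligand of Kit, one of -0.19 ± 0.34 (adjusted p = 0.840). Neither was called in any turn.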

How the data were processed

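RNA of cochlear pieces was made into Illumina paired-end libraries. Per the labels, the submitters' processing notes name fastp 0.20.0, STAR 2.7.3a, featureCounts 2.0.0, StringTie 2.0, deepTools 3.3.1 and DESeq2 1.30.0 with build mm10, without stating strandedness. The authors deposited FPKM per gene and library (sums 316425 to 408162), and as no read counts were used here, the depth of each library is unknown and no count model was fitted. Of 37432 genes, 16215 reached 1 FPKM in 2 or more libraries and entered the tests. FPKM were scaled by the median ratio over 11552 genes. log2(scaled FPKM + 1) was fitted with limma 3.58.1 (R 4.3.3) over all 6 groups, leaving 6 residual degrees of freedom, and genes were called at an adjusted p (Benjamini-Hochberg) under 0.01 with more than a 2-fold change. The steps were tested on simulated data with known changes.

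The 10 members and the 16 gene lists were chosen with earlier results of these data known. Beside the members, the text names Gjb2, the list genes called in a genotype contrast within a turn, the 2 of highest mean in each list, and the 5 tested genes most correlated with the melanosome mean. Other names are marked as chosen after their values were seen. A result that this rule would name is not reported here. The replicate numbers of the labels were checked as pairs, and no block was used. Gene positions in the file were those of the GENCODE M21 annotation for 7 of 10 members.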

Additional observations from a re-analysis of the deposited data

Results flagged for a closer look

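In several genes 1 library stood apart from the other 5 of its genotype by Dixon's test on the log2 scale (the gap to the nearest library as a share of the range, critical value 0.625 for 6 libraries), which chance alone meets in about 1 of 20 groups. The 6 libraries of a genotype span 3 turns, and the genes are not independent of each other. Wild-type basal replicate 2 was highest for Tyr (0.976 of the range, 11.5 scaled FPKM against 0.0991 in the next library), Mlana (0.912, 30.2 against 0.501), Slc45a2 (0.904, 24.8 against 0.365), Dct (0.781, 442 against 5.59) and, just past the critical value, Pmel (0.625, 5.27 against 1.57). Homozygous basal replicate 2 was lowest for Dct (0.793, 0.0646 against 158) and highest for Pmel (0.669, 2.48 against 1.89).

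The genotype effect on Met differed between turns: it was -3.32 on the log2 scale in the basal relative to the middle turn (limma adjusted p = 0.00236). The direction was opposite in the 2 turns, with both homozygous libraries above both wild-type ones in the middle turn and below them in the basal turn. This comparison called 8.91% of all genes, and Met alone of the 9 members tested. Met was low in the wild-type middle and the homozygous basal turn, the exchange of turns also seen for Emilin2. The part of that exchange in this result was not tested.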

How the results depend on the processing

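The number of members called was set by Met in most comparisons and was fragile. The share of all genes called under each alternative setting is not given, so the counts that follow are not set against a background. In the basal turn the count of 1 became 0 with no filter on low values, with library weights, with a replicate block and with the 4 basal libraries alone, and lay between 0 and 1 when single libraries were left out. In the apical turn the count of 0 became 2 with the 4 apical libraries alone. At an adjusted p under 0.05 with no limit on the fold change, 1 member was called in the middle turn and 1 in the genotype effect of the basal against the apical turn. In the genotype effect of the basal against the middle turn the count was 1 to 3 on leaving out single libraries, with 3 only without wild-type basal replicate 1. In the average over turns it was 0 to 1, with 1, Slc45a2 at 3.04, only without wild-type basal replicate 2. In homozygous cochleae, basal against apical and basal against middle each gave 0 with no filter and with a replicate block, and 0 to 1 on leaving out single libraries. Both calls held without wild-type basal replicate 1 or 2 or homozygous basal replicate 1, the first also without homozygous middle replicate 1 or 2, and each other library ended them. An alternative added after the data were seen left out both basal replicate 2 libraries. The basal estimates, then with 1 library on each side, turned to 2.26 for Tyr, 6.30 for Dct and 0.82 for Pmel. They turned to 1.45 for Mlana, 2.59 for Slc45a2, -0.10 for Kit and 0.21 for Kcnj10, and the average of Kcnj10 turned to 0.11. The call of Met in homozygous basal against middle was lost.

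The replicate numbers are shared by the groups but deviations of same-numbered libraries correlated at -0.43 to 0.45 over 15 pairs of groups, with 4 over 0.1, so the numbers do not pair the libraries. With the block, Met in the basal turn had a limma adjusted p of 0.0121. The basal estimates of the melanosome genes turned with single libraries, from -5.10 to 2.68 for Dct, -2.46 to 1.09 for Tyr, -3.34 to 1.29 for Slc45a2, -3.95 to 0.43 for Mlana and -1.05 to 1.01 for Pmel, which was 0.23 with a pseudocount of 0.1. Mitf lay between -0.31 and 0.52, Kit between -0.18 and 0.45 and Kcnj10 between -0.90 and 0.10 there. Kcnj10 lay between -0.33 and 0.15 in the apical turn, -0.41 and 0.84 in the middle turn and -0.30 and 0.12 in the average, Met between -0.17 and 0.30 in the apical turn, and Pmel between -0.10 and 0.59 in the average. In the apical and middle turn, Dct, Tyr, Slc45a2, Mlana and Mitf kept a positive estimate on leaving out any single library. FPKM as deposited shifted the median of all genes by 0.13 in the middle turn. Depth is unknown, so values near 0 cannot be given a counting error.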

Other observations

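Some markers of other cell types were called between genotypes, beside 0.179% of all genes in the middle turn and 4.29% at the base (1.76% lower). Among Schwann cell markers, Prx and Egr2 rose in the homozygous basal turn (by 2.38 and 2.37 on the log2 scale, limma adjusted p of 0.00288 and 0.00149) and Prx was lower in the middle turn at -2.32 (adjusted p = 0.00806). Of 5 hair cell markers, the synaptic gene Otof (-4.60) and the transcription factor Pou4f3 (-3.22) fell in the basal turn. Slc26a5, the motor protein prestin of outer hair cells, was higher by 2.93 in the homozygous middle turn. It measured 0.0255 and 0.876 scaled FPKM in the wild-type middle and 7.78 and 11.7 in the homozygous middle libraries. Of 6 supporting cell markers, 1 fell in the basal turn (Otog, -4.22). Prx showed the exchange of turns described above for Emilin2 and Met. It measured 87.6 and 111 scaled FPKM in the wild-type middle and 128 and 151 in the homozygous basal libraries. In the wild-type basal libraries it measured 34.9 and 19.0, and in the homozygous middle ones 17.9 and 20.2. The part of that exchange in the calls of this paragraph was not tested. None of the 6 neuron, 6 oligodendrocyte and astrocyte, 6 fibrocyte, 4 strial basal cell, 4 macrophage, 2 tested mast cell and 5 tested marrow progenitor markers was called by limma between genotypes in any turn. At an unadjusted p under 0.05, 4 of these 33 markers passed at the apex, 7 in the middle turn and 12 at the base. The share of all genes at that level is not given, so these counts are not set against a background. Neuron markers made up 0 of the 4, 5 of the 7 and 6 of the 12. Their median log2 fold change was -3.48 in the middle turn and 4.36 at the base. Their summed level was 1021 and 1125 scaled FPKM in the wild-type middle and 240 and 28.0 in the homozygous middle libraries. At the base it was 7.16 and 594 for wild-type, and 1944 and 2334 for homozygous cochleae.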
